A study of Mus musculus with 10 samples.

Results

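The GIMAP genes (GTPases of the immunity-associated protein family) are 8 genes of the mouse that were followed here in regulatory T cells of the spleen. They were Gimap1, Gimap3, Gimap4, Gimap5, Gimap6, Gimap7, Gimap8 and Gimap9. They were found by their symbol in the array's probe table, where all 8 had 1 probe set each, among 19938 genes with a value. Regulatory T cells (Tregs) were sorted as CD4+ cells with a red fluorescent reporter for Foxp3, from female C57BL/6 mice of 9 to 14 weeks. CD62L, a homing receptor for lymph nodes, CD69, an activation marker, and Klrg1, a receptor of differentiated lymphocytes, divided them further. FR3 Klrg1+ (CD62Llo CD69+ Klrg1+) had 1 array, FR3 Klrg1- (CD62Llo CD69+ Klrg1-) had 4, FR2 (CD62Llo CD69- Klrg1-) had 2 and FR1 (CD62Lhi CD69- Klrg1-) had 2. Another array was titled FR3 but carried the gates of FR1 in the same title, and it was placed in no group. The labels do not say how many mice gave the cells of an array. In such bulk samples, fewer cells of a type and less RNA per cell cannot be told apart.

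GIMAP proteins are small GTPases that sit mostly on membranes inside lymphocytes, and they are known for their part in the survival and quiescence of T cells. Loss of Gimap5 in mice and rats leaves few peripheral T cells, and loss of Gimap1 in mice removes most mature lymphocytes. Gimap3 and Gimap5 are close relatives, whose proteins were reported to bind anti-apoptotic proteins of the BCL2 family. Gimap4 is known to speed the death of T cells, and Gimap6 binds the ATG8 protein Gabarapl2 and acts in autophagy. Gimap7 in humans is an active GTPase that works as a dimer, and Gimap8 carries several GTP-binding domains.

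The 8 genes lie side by side on chromosome 6, between 48647186 and 48770851 in GRCm38.p6, a span of 123.7 kb. Their order is Gimap8, Gimap9, Gimap4, Gimap6, Gimap7, Gimap1, Gimap5 and Gimap3. Gimap6 and Gimap3 are on the minus strand, the other 6 on the plus strand. The gene table gives Gimap5 as an older name of Gimap3. Both were matched by their current symbols, which carry the gene IDs 317757 for Gimap5 and 83408 for Gimap3. Relatives as close as these can share probes, and that was not tested.

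The promoter windows below (RefSeq, GRCm38.p6, 300 bases each, mostly before a gene's start, 5′ to 3′ on the gene's strand) belong to the 2 genes whose levels passed a test between groups, Gimap5 and Gimap3, and to Gimap7 and Gimap1, whose changes in that comparison lay above 0 without passing. Capitals mark matches to the ETS motif AGGAAG, the RUNX motif TGTGGT, the TCF7/LEF1 motif CTTTGA and the FOXO motif GTAAACA, searched on both strands.
Gimap5, chr6:48745947-48746246, plus strand: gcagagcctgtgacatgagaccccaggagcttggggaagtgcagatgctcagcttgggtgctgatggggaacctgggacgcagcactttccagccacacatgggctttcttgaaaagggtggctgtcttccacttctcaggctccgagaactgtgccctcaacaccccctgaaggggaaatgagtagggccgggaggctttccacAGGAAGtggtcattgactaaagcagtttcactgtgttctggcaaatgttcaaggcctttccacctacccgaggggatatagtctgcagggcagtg
Gimap3, chr6:48770802-48771101, minus strand: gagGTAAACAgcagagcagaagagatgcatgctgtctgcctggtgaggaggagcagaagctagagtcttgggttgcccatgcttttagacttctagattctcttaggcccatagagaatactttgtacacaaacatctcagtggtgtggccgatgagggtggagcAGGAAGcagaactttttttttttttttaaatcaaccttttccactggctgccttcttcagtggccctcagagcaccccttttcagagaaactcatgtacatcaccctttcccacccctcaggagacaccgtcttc
Gimap7, chr6:48718371-48718670, plus strand: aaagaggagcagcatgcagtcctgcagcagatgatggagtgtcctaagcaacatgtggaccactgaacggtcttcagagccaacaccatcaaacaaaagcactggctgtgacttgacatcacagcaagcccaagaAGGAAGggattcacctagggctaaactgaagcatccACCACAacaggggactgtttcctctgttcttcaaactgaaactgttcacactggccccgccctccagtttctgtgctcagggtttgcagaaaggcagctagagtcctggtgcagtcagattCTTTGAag
Gimap1, chr6:48738797-48739096, plus strand: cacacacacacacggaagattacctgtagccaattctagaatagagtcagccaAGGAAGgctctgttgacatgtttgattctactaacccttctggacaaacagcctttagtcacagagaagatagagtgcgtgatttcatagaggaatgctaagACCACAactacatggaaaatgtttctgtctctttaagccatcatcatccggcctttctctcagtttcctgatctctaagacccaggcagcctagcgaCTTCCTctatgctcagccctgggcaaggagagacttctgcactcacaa

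The 8 genes had 9 such windows, since Gimap8 had 2 overlapping ones. The ETS letters stood in 7 of the 9 windows, against 35.4% of the 32851 windows of all genes. The RUNX letters stood in 3 (Gimap4, Gimap7 and Gimap1; 16.8% of all windows), the TCF7/LEF1 letters in 2 (Gimap4 and Gimap7; 16.0%) and the FOXO letters in 1 (Gimap3; 3.6%). Gimap5 and Gimap3 thus shared the ETS letters and no other motif of these 4, and Gimap7 and Gimap1 shared the ETS and RUNX letters. Gimap4, with a log2 fold change of -0.11 in FR2 against FR1, held both of these motifs too. The part of the motifs in the levels was not tested. The windows of the family held 43.3% to 57.3% G and C, against a median of 52.7% over all windows.

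The arrays fell into 2 sets that did not follow the gates. The first held FR3 Klrg1- replicates 1 and 2, FR2 and FR1, the second FR3 Klrg1+, FR3 Klrg1- replicates 3 and 4 and the array in no group. FR3 Klrg1- arrays of different sets correlated at 0.918 to 0.921 over all probe sets, and arrays of 1 set at 0.972 to 0.992. Comparisons are therefore given within a set, by 1 limma fit with the array set as a block. On every array Cd3e (11.09 to 11.78, RMA log2 level), Cd4 (9.86 to 11.65) and Foxp3 (9.63 to 10.93) were at or above percentile 91.4 of the probe sets, and the macrophage gene Lyz2 was at or below percentile 32.1. Array medians lay between 6.15 and 6.31, and a log2 difference of 1 is a doubling.

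All 8 GIMAP genes were well detected in every Treg subset. Of the family, 7 genes lay at or above percentile 92.5 of their array's probe sets on all 10 arrays, and Gimap5 lay between percentiles 77.5 and 90.6. Within the first set a gene's highest and lowest array differed by 0.18 (Gimap4) to 0.60 (Gimap5) on the log2 scale. The family thus kept a high level across gates that divide Tregs by homing and activation. The plot of levels by array shows these values.

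**Figure D1:**
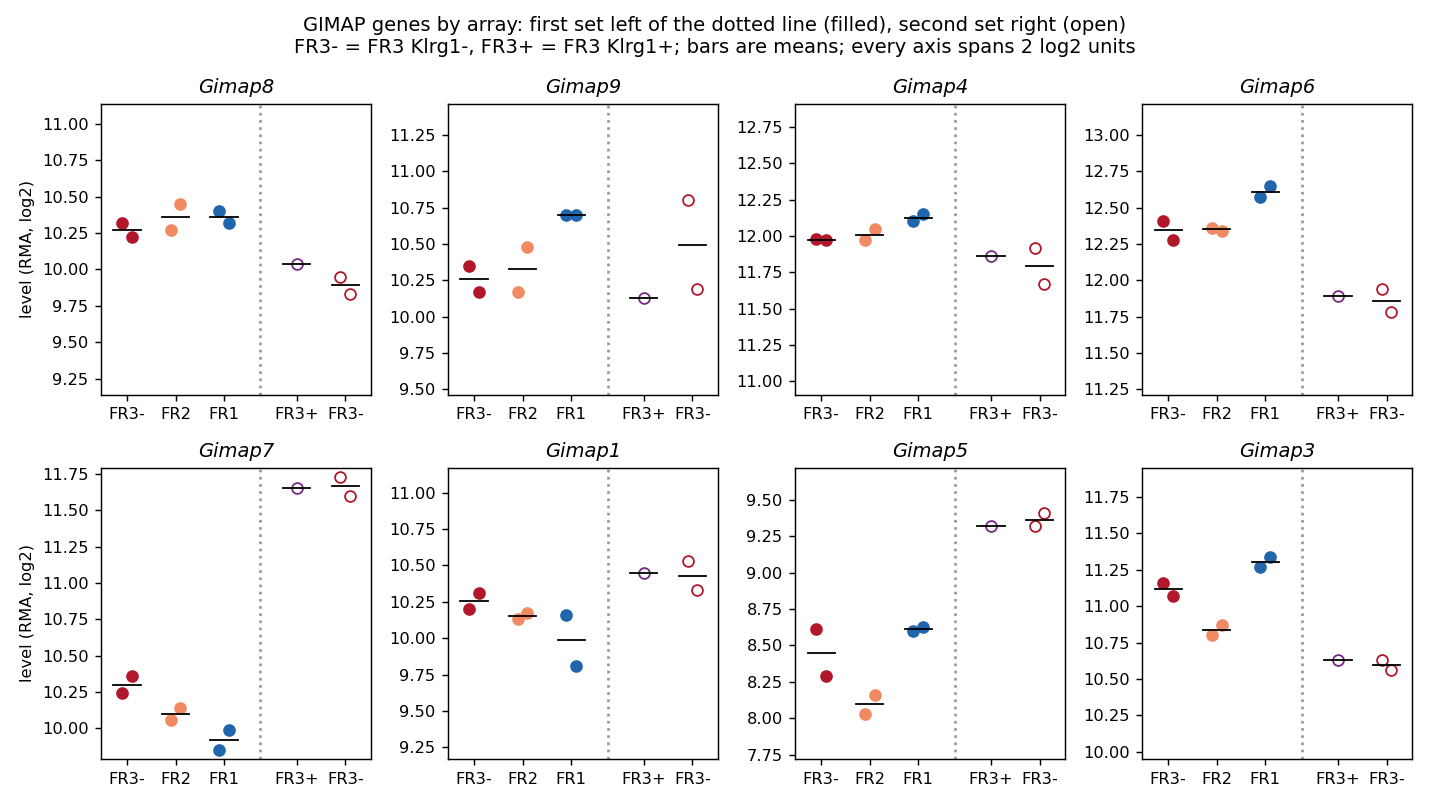
Log2 level (RMA) of each GIMAP gene on the 9 arrays with a group, ordered along the chromosome; points are arrays, bars are group means, and each panel spans the same height. Left of the dotted line are FR3 Klrg1- replicates 1 and 2, FR2 and FR1, right of it FR3 Klrg1+ and FR3 Klrg1- replicates 3 and 4. Gimap5 and Gimap3 are lowest in FR2 among the groups of the first set, while Gimap7 and Gimap5 stand higher on all arrays of the second set.

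The comparison of FR2 with FR1 crosses the gate for CD62L, as both subsets were gated CD69- and Klrg1-. The 2 relatives Gimap5 and Gimap3 fell in FR2, and no GIMAP gene rose past the threshold. Gimap5 had log2 levels of 8.03 and 8.16 in FR2, against 8.60 and 8.63 in FR1. Both FR2 arrays lay below both FR1 arrays. The log2 fold change was -0.52 ± 0.14 (SE, n = 2 and 2), a level that fell by 30.2%, with limma's adjusted p = 0.0494. Gimap3 had 10.80 and 10.87 in FR2, against 11.27 and 11.34 in FR1, again with no overlap. Its log2 fold change was -0.47 ± 0.12, a level that fell by 28.0%, with limma's adjusted p = 0.0454. The 2 called genes of 8 stand against 4.26% of all genes called in either direction, 1.96% higher and 2.30% lower in FR2.

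Both calls stood close to the threshold. Leaving out any 1 of the FR2 or FR1 arrays, or FR3 Klrg1- replicate 1 or 2, left 0 of the 8 genes called. The fold change of Gimap5 then lay between -0.58 and -0.45, with adjusted p from 0.0543 to 0.368 (limma), and that of Gimap3 between -0.51 and -0.44, with 0.0801 to 0.316. With the replicate number as a block as well, the adjusted p was 0.0679 for Gimap5 and 0.0601 for Gimap3, and after quantile normalization it was 0.0973 and 0.0729. Without the array set in the fit 0 of 8 were called, at the same fold changes.

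Among the other survival genes, Gimap1 had 10.13 and 10.17 in FR2, against 10.16 and 9.81 in FR1. The groups overlapped, and the log2 fold change of 0.17 ± 0.14 had an interval of -0.14 to 0.47 (95%, limma). Gimap4, the gene tied to T cell death, had 11.97 and 12.05 in FR2 and 12.10 and 12.15 in FR1, a log2 fold change of -0.11 ± 0.13 that turned to 0.12 after quantile normalization. The autophagy gene Gimap6 had 12.36 and 12.34 in FR2, against 12.57 and 12.65 in FR1. It did not overlap between the groups, but the change of -0.26 ± 0.13 did not pass (limma, adjusted p = 0.324) and was -0.06 after quantile normalization.

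Gimap9 had 10.17 and 10.48 in FR2, against 10.70 on both FR1 arrays. Its change of -0.38 ± 0.18 did not pass (limma, adjusted p = 0.295), and it lay between -0.54 and -0.22 when single arrays were left out, the ends given by leaving out FR2 replicates. Gimap7 had 10.06 and 10.14 in FR2, above the 9.85 and 9.99 of FR1, at 0.18 ± 0.13 (adjusted p = 0.527). Gimap8 had 10.27 and 10.45 in FR2 and 10.40 and 10.32 in FR1, with group means that were equal to 2 decimals (10.36). In all, 6 of the 8 genes did not overlap between FR2 and FR1, 5 of them lower and 1 higher in FR2. Over all genes 48.6% did not overlap. The median change of the family was -0.19, and that of all genes 0.02.

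FR3 Klrg1- against FR2 spans the gate for CD69 among CD62Llo cells. No GIMAP gene of the 8 passed in limma, where 4.75% of all genes were called (2.81% higher and 1.94% lower in FR3 Klrg1-). Over all 19938 genes, 3129 had an unadjusted p under 0.05 in limma, and 2 of the 8 GIMAP genes did. The 2 were Gimap5 and Gimap3, the genes that had fallen in FR2. The same 2 FR2 arrays serve both comparisons, so genes picked as low in FR2 tend to lie higher here by construction. These values are therefore no separate evidence of a rise. Gimap5 had 8.61 and 8.29 in FR3 Klrg1-, against 8.03 and 8.16 in FR2, a change of 0.36 ± 0.14 with an interval of 0.06 to 0.65 (adjusted p = 0.197). Gimap3 had 11.16 and 11.07 in FR3 Klrg1-, against 10.80 and 10.87 in FR2, a change of 0.28 ± 0.12 with an interval of 0.01 to 0.55 (adjusted p = 0.287). Both genes were above FR2 on both FR3 Klrg1- arrays. The change of Gimap5 was 0.20 without FR3 Klrg1- replicate 1 (adjusted p = 0.801), and without the array set in the fit it was 0.81 for Gimap5 and 0.02 for Gimap3.

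The other 6 genes had changes from -0.09 (Gimap8) to 0.20 (Gimap7) in FR3 Klrg1- against FR2. Gimap6 averaged 12.35 in both groups. Groups did not overlap for 4 of 8 genes, all higher in FR3 Klrg1- (Gimap5, Gimap3, Gimap7 and Gimap1), against 48.8% of all genes. The family's median was 0.05. Its intervals together ran from -0.44 to 0.65, so none reached a log2 change of 1.

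FR3 Klrg1- and FR1 stand on opposite sides of the CD62L and CD69 gates, and 8.19% of all genes were called (4.39% higher and 3.79% lower in FR3 Klrg1-). Of the GIMAP genes 0 of 8 passed in limma, with 2 at an unadjusted p under 0.05, Gimap7 and Gimap9. Over all 19938 genes, 3627 had an unadjusted p under 0.05 in limma. Gimap7 had 10.24 and 10.36 in FR3 Klrg1-, against 9.85 and 9.99 in FR1. Its FR3 Klrg1- arrays were the highest of the first set and its FR1 arrays the lowest, with FR2 between them and no overlap. The change was 0.38 ± 0.13, with an interval of 0.11 to 0.66 (limma, adjusted p = 0.0945). It passed with an intensity trend in the variance (adjusted p = 0.0224), without dim genes (0.0453) and after quantile normalization (0.0415). It did not pass when an FR3 Klrg1- array of the first set or an FR1 array was left out (0.168 to 0.475), or without the array set in the fit, where the change was 1.06 (0.317).

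Gimap9 had 10.35 and 10.17 in FR3 Klrg1-, against 10.70 on both FR1 arrays, a change of -0.44 ± 0.18 (limma, adjusted p = 0.186). Gimap6 had 12.41 and 12.28 in FR3 Klrg1-, against 12.57 and 12.65 in FR1, at -0.26 ± 0.13. FR2 and FR3 Klrg1- were alike lower than FR1 in the means of these 2 genes. Gimap1 was at 0.27 ± 0.14, Gimap3 at -0.19 ± 0.12, Gimap5 at -0.16 ± 0.14, Gimap4 at -0.15 ± 0.13 and Gimap8 at -0.09 ± 0.13. Single arrays moved 2 of these: Gimap1 was at 0.09 without FR1 replicate 2 and 0.44 without FR1 replicate 1, and Gimap5 at -0.32 without FR3 Klrg1- replicate 1 and -0.00 without replicate 2. Of the 8 genes, 6 did not overlap (49.0% of all genes), 4 lower and 2 higher in FR3 Klrg1-. The median of the family was -0.15, against 0.02 over all genes. These 3 comparisons share arrays, so their values are not independent of each other.

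FR3 Klrg1+ against FR3 Klrg1- lies in the second set, with 1 array against 2, and the single array was taken to vary like the other groups. In limma 0 of 8 GIMAP genes passed, while 4.96% of all genes were called (2.14% higher and 2.82% lower in FR3 Klrg1+). Gimap3 stood at 10.63 in FR3 Klrg1+, against 10.63 and 10.56 in FR3 Klrg1-, a change of 0.04 with an interval of -0.29 to 0.36. Gimap5 stood at 9.32, against 9.32 and 9.41 (-0.04, interval -0.41 to 0.32). For 6 of the 8 genes the size of the change was 0.07 or less.

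The exceptions were Gimap9 and Gimap8. Gimap9 stood at 10.13 in FR3 Klrg1+, against 10.80 and 10.19 in FR3 Klrg1-, a change of -0.37 ± 0.22 (limma, adjusted p = 0.375). The 2 FR3 Klrg1- arrays lay further apart from each other than the means of the groups. The change of Gimap9 was -0.67 without FR3 Klrg1- replicate 4 (adjusted p = 0.0442) and -0.06 without replicate 3 (adjusted p = 0.893), so it rests on which of these arrays is kept. Gimap8 stood at 10.04, against 9.95 and 9.83, at 0.15 ± 0.16. Only these 2 genes of 8 lay outside the range of the FR3 Klrg1- arrays, against 72.5% of all genes. The plot of fold changes with intervals puts the 4 comparisons side by side.

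**Figure D2:**
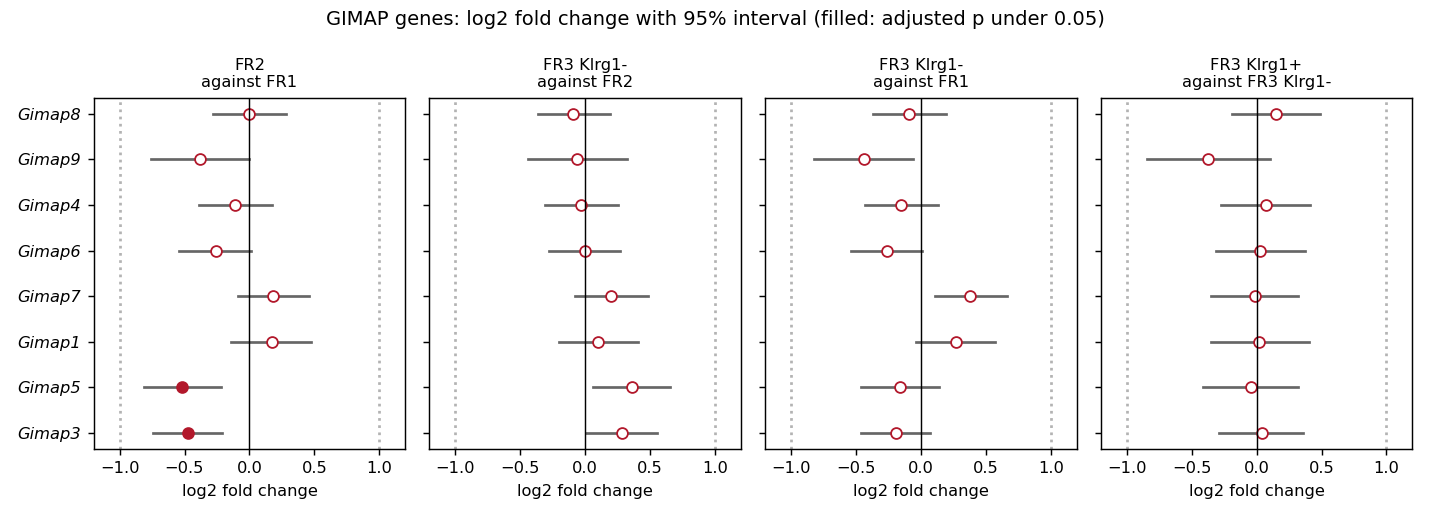
Log2 fold change (x axis) of each GIMAP gene in 4 comparisons with its 95% interval; filled points have an adjusted p under 0.05 in limma, and dotted lines mark -1 and 1. Only Gimap5 and Gimap3 in FR2 against FR1 are filled, and no interval reaches a dotted line: the intervals lie between -0.84 and 0.66.

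Between the array sets the same gate gave other levels. Genes of the family differed in both directions there. Between the gates within a set changes also lay on both sides of 0, but the only 2 that passed were falls. The sets were taken from the correlation of these same arrays, so p-values between them describe the split and do not test it. Gimap7 had 10.24 and 10.36 on FR3 Klrg1- replicates 1 and 2, against 11.73 and 11.60 on replicates 3 and 4, a difference of -1.36 ± 0.13 in the same fit (limma, adjusted p = 9.02e-07). Gimap5 had 8.61 and 8.29 on replicates 1 and 2, against 9.32 and 9.41 on replicates 3 and 4 (-0.91 ± 0.14, adjusted p = 8.49e-05). Its relative Gimap3 went the other way, with 11.16 and 11.07 on replicates 1 and 2, against 10.63 and 10.56 on replicates 3 and 4 (0.52 ± 0.12, adjusted p = 0.00391). Gimap6 (0.49 ± 0.13) and Gimap8 (0.38 ± 0.13) were also higher on replicates 1 and 2.

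In all, 5 of 8 genes passed between the sets, beside 38.3% of all genes, 3 higher (19.3% of all genes) and 2 lower (18.9%) on replicates 1 and 2. The arrays did not overlap for 7 of the 8, against 66.7% of all genes. For Gimap7 this difference was larger than any change of a GIMAP gene between gates within a set. Markers of T cells also differed, with a mean of 11.30 to 11.32 over 9 genes on replicates 1 and 2, against 10.94 to 10.97 on replicates 3 and 4. Their part in these differences was not tested. Without FR3 Klrg1- replicate 1, 3 of the 8 passed. The labels do not name what sets these arrays apart.

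The genes on either side of the family were looked up to see whether the change ran past its ends. On the Gimap3 side lie Tmem176b, Tmem176a and Gm7932, on the Gimap8 side AI854703, Zfp775 and Repin1. In FR2 against FR1, 0 of these 6 neighbours passed in limma, where 4.26% of all genes were called. At that share, 6 genes are too few to show where the change ends. All 6 had changes above 0, from 0.10 (Zfp775 and AI854703) to 0.47 (Repin1). Gimap5 and Gimap3, at the end of the cluster, fell beside Tmem176b at 0.32 ± 0.14 (adjusted p = 0.268). Tmem176b, a membrane protein gene, fell by 0.78 ± 0.14 in FR3 Klrg1- against FR2 (adjusted p = 0.005), next to Gimap3 at 0.28 ± 0.12. Repin1 was higher in FR3 Klrg1- than in FR1 (0.57 ± 0.14, adjusted p = 0.0191). The mean levels of these neighbours lay between percentiles 44.5 and 56.9, far below those of the family.

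**Figure D3:**
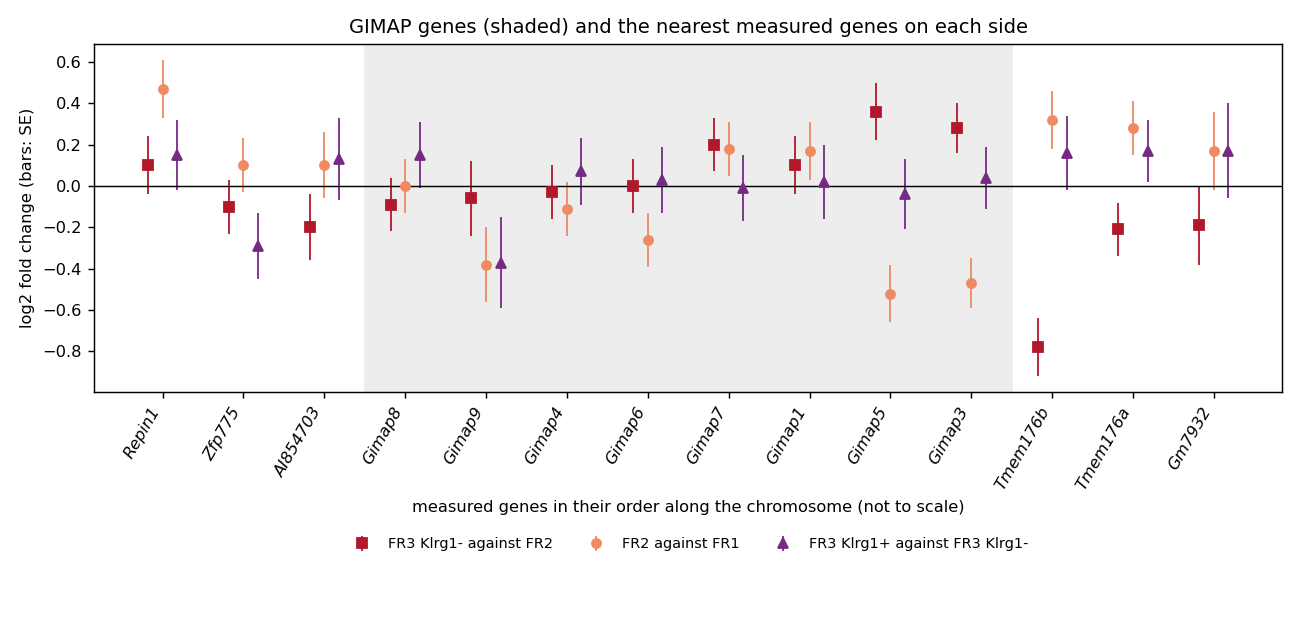
Log2 fold change with SE (y axis) of the GIMAP genes (shaded) and the 3 nearest measured genes on each side, in their order along the chromosome, for 3 comparisons. Gimap5 and Gimap3 at the right end of the family are lowest in FR2 against FR1, and Tmem176b beyond them is at -0.78 in FR3 Klrg1- against FR2.

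Other gene lists put the size of these changes in view. They were chosen with earlier results of these data known, so their counts give a scale and no test. Of 15 naive and lymphoid homing genes, which mark central Tregs, 9 fell and 0 rose in FR2 against FR1 (median -0.65), with Ccr7, the receptor for lymph node entry, at -1.61 ± 0.13 (limma, adjusted p = 4.06e-06). As many as 12 of them fell in FR3 Klrg1- against FR1 (median -1.28), with S1pr1, the receptor for lymphoid exit, at -2.37 ± 0.12. Of 20 effector Treg genes, 19 rose in FR3 Klrg1- against FR1 (median 1.65), against 0 of 8 GIMAP genes (median -0.15). Over all genes 8.19% were called in that comparison, 4.39% higher and 3.79% lower. In FR3 Klrg1+ against FR3 Klrg1-, 9 effector genes rose (median 0.52), 1 of them Klrg1, on which these groups were sorted, while 2 naive and homing genes rose and 4 fell (median -0.34). Of the genes behind the gates, Klrg1 was 4.96 ± 0.23 higher in FR3 Klrg1+ than in FR3 Klrg1- on the log2 scale (adjusted p = 4.53e-08). The Klrg1 transcript also rose between subsets that were all gated Klrg1-, by 0.90 ± 0.19 in FR2 against FR1 (adjusted p = 0.014) and by 1.27 ± 0.19 in FR3 Klrg1- against FR1 (adjusted p = 0.000395). The transcript of Cd69 did not follow its gate, at 0.07 ± 0.18 in FR3 Klrg1- against FR2 (adjusted p = 0.918).

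Of the BCL2 family, which holds the reported partners of Gimap3 and Gimap5, 10 genes were measured. In FR2 against FR1 the survival gene Bcl2 fell by 1.23 ± 0.14 (limma, adjusted p = 8.68e-05) and the pro-apoptotic Bcl2l11 fell by 1.47 ± 0.14 (1.73e-05), the 2 of 10 that passed (median 0.04). Bcl2l1, which encodes the survival protein BCL-XL, rose by 0.56 ± 0.13 in FR3 Klrg1- against FR2 (0.0247) and the pro-apoptotic Pmaip1 by 0.55 ± 0.12 (0.0182). Of the 10, 2 rose and 3 fell in FR3 Klrg1- against FR1. In FR3 Klrg1+ against FR3 Klrg1- Bcl2 alone of the 10 passed, at -0.69 ± 0.17 (0.0334).

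Of 12 genes of the ATG8 family and autophagy, Gabarapl2, the partner of Gimap6, was the 1 that passed in FR2 against FR1. Over all genes 4.26% were called there. In that comparison Gimap6 was at -0.26 ± 0.13 (limma, adjusted p = 0.324), and at -0.06 after quantile normalization. Gabarapl2 fell by 0.55 ± 0.13 (limma, adjusted p = 0.0255). Its relative Gabarapl1 rose in FR3 Klrg1- against FR2 (0.69 ± 0.16, adjusted p = 0.0183) and against FR1 (0.71 ± 0.16, 0.00815), and 0 of 12 passed in FR3 Klrg1+. Among other GTPases, 1 of 8 measured interferon-inducible ones rose in FR2 against FR1, Iigp1 (0.65 ± 0.14, adjusted p = 0.0171), and 1 of 6 septins, Septin11 (0.51 ± 0.13, adjusted p = 0.039).

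**Figure D4:**
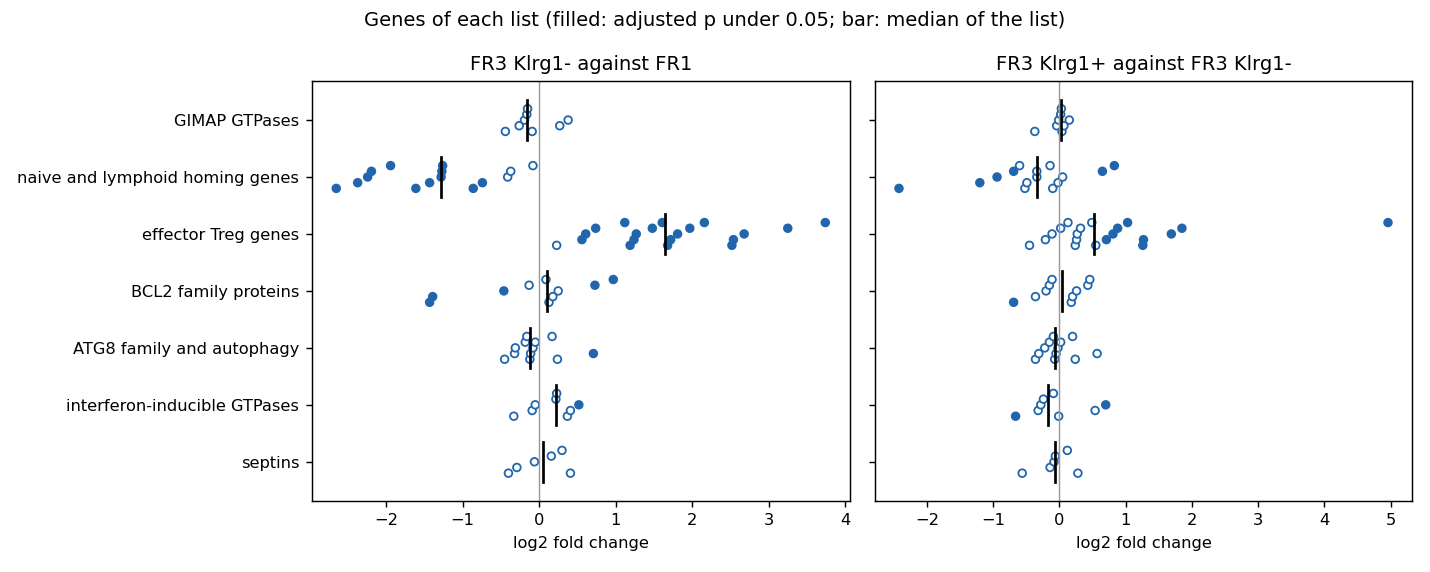
Log2 fold change (x axis) of every measured gene of 7 lists in FR3 Klrg1- against FR1 (left) and FR3 Klrg1+ against FR3 Klrg1- (right); filled points have an adjusted p under 0.05 in limma and bars are medians. On the left the naive and homing genes lie around a median of -1.28 and the effector Treg genes around 1.65, while all 8 GIMAP genes lie between -0.44 and 0.38 and none is filled.

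Of 57 markers of other cell types, 1 rose and 2 fell in FR2 against FR1, the plasma cell genes Prdm1 (1.41 ± 0.21), which Tregs also use, and Jchain (-0.84 ± 0.21), and the endothelial and lymphocyte adhesion gene Pecam1 (-0.65 ± 0.13). The 8 B cell markers averaged 5.24 to 5.27 on the FR2 arrays and 5.32 to 5.33 on the FR1 arrays, and 0 of them passed. The 2 CD8 T cell markers averaged 6.75 to 6.88 in FR2 and 6.99 to 7.19 in FR1 without overlap (median change -0.27), and 0 of them passed. The 9 T cell markers averaged 11.20 to 11.23 in FR2 and 11.22 on both FR1 arrays. The part of these markers in the fall of Gimap5 and Gimap3 was not tested. The NK cell gene Klrb1c alone of the 57 passed in FR3 Klrg1- against FR2 (1.09 ± 0.14). Against FR1, 2 rose in FR3 Klrg1- (Prdm1 and Klrb1c) and 3 fell, Pecam1 (-1.06 ± 0.13), Cd79a of B cells (-0.68 ± 0.17) and Cd8b1 of CD8 T cells (-0.55 ± 0.13), and in FR3 Klrg1+ against FR3 Klrg1- 3 rose and 3 fell.

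The mean of the 8 centred GIMAP levels over the 6 arrays of the first set was nearly flat, with 0.04 and -0.03 in FR3 Klrg1-, -0.15 and -0.03 in FR2, and 0.09 and 0.08 in FR1. In this mean profile, genes that moved in opposite directions offset each other, such as Gimap7 at 0.38 and Gimap9 at -0.44 in FR3 Klrg1- against FR1. The 5 genes with the smallest root mean square distance from this profile were Cdk2ap2 (0.020 on the log2 scale), Yipf6 (0.022), Psmd4 (0.024), Dnajc6 (0.025) and Btf3 (0.025). Their changes in FR2 against FR1 lay between -0.22 (Yipf6) and -0.13 (Psmd4). The likeness is to this mean and not to any single GIMAP gene. It was taken over 6 arrays and is a description.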

How the data were processed

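RNA of sorted spleen Tregs was measured on Affymetrix Mouse Gene ST 1.0 arrays, per the labels' protocols. The values are the authors' deposited log2 intensities of 35556 probe sets, made by RMA per the submitters' processing notes; the notes do not say if RMA took the 10 arrays in 1 run. Of the probe sets 21789 had 1 gene symbol, 1621 several and 12146 were not in the probe table; the brightest per gene was kept, which gave 19938 genes. Groups were compared by limma 3.58.1 in R 4.3.3, with group means and the array set as a block, on 9 arrays (4 residual degrees of freedom), with Benjamini-Hochberg adjustment over all genes and a threshold of 0.05. The array sets were taken from the correlation of the arrays. The number of arrays limits the precision, and p-values measure the spread between arrays labelled as biological replicates, for which separate animals are not stated. On simulated data the fit found 95% to 100% of genes changed by 1 on the log2 scale. It also called 8 to 15 unchanged genes per comparison. Changes smaller than 1 were not simulated, while the largest GIMAP change between gates within a set was 0.52. How often the fit finds changes of that size was not tested.

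The GIMAP genes, the other lists, the array sets and the tests were chosen with earlier results of these data known. The text names all GIMAP genes, the sort markers, up to 4 called members of each other list with the largest change per comparison, the 3 nearest measured genes on each side, and the 5 genes closest to the mean GIMAP profile. Alternatives were the array set, the arrays fitted, an intensity trend, a filter at percentile 40, quantile normalization, the mean of a gene's probe sets, the replicate block, a fold threshold and leaving out each array.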

Additional observations from a re-analysis of the deposited data

How the results depend on the processing

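The 2 GIMAP calls in FR2 against FR1 became 0 with a log2 change of at least 1, without the array set, after quantile normalization and with the replicate block, and 0 to 2 when single arrays were left out. In FR3 Klrg1- against FR1 the count of 0 became 1 (Gimap7) with an intensity trend, after quantile normalization and without genes under percentile 40. In FR3 Klrg1+ against FR3 Klrg1- leaving out single arrays gave 0 to 1, and between the array sets 3 to 5. These last alternatives were chosen after seeing the data. The causes were not tested.

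Over all genes, 850 were called in FR2 against FR1, 158 of them with a log2 change of at least 1, 52 without the array set, 1331 on the arrays of the set only, 1401 without genes under percentile 40, and 253 to 1331 when single arrays were left out. In FR3 Klrg1- against FR2 there were 948, with 145 at a change of at least 1, 55 without the array set and 302 to 1318 without single arrays. In FR3 Klrg1- against FR1 there were 1632, with 429, 439 and 910 to 2063. In FR3 Klrg1+ against FR3 Klrg1- there were 989, with 212, 22 and 721 to 1553.

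Whether the replicate numbers pair the samples cannot be settled with 2 arrays per group in the first set. Same-numbered arrays deviated together with r = 0.181 between FR2 and FR1, 0.144 between FR3 Klrg1- and FR1 and 0.023 between FR3 Klrg1- and FR2. The replicate block gave 750, 812 and 1550 calls in the 3 comparisons of the first set, and adjusted p = 0.0679 for Gimap5 and 0.0601 for Gimap3 in FR2 against FR1 (limma). FR3 Klrg1+ shares no number with FR3 Klrg1- replicates 3 and 4.

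Of 472 alternative values of single genes, 424 kept direction and side of the threshold, 18 lost the threshold, 4 passed it and 26 changed sign, none of these past the threshold. Many of these settings cannot move a gene's fold change, so its direction was fixed there in advance. They are the mean of probe sets (1 per GIMAP gene), the intensity trend, the filter and the replicate block. The arrays of the set only, and leaving out an array outside the comparison, also keep the fold change. In FR2 against FR1 quantile normalization gave 0.08 for Gimap8 and 0.12 for Gimap4, and leaving out arrays gave -0.09 to 0.09 for Gimap8 and -0.01 to 0.34 for Gimap1. In FR3 Klrg1- against FR2, Gimap9 was 0.06 without the array set, and leaving out arrays gave -0.18 to 0.00 for Gimap8, -0.22 to 0.10 for Gimap9, -0.07 to 0.00 for Gimap4 and -0.07 to 0.06 for Gimap6. In FR3 Klrg1- against FR1, Gimap5 was 0.30 without the array set. That fit also moved Gimap7 to 0.88 and 1.06, Gimap5 to 0.81 against FR2 and Gimap3 to 0.02 and -0.45 (against FR2, then against FR1), and Gimap6 to -0.51 and Gimap4 to -0.24 against FR1. In FR3 Klrg1+ against FR3 Klrg1- the fit without the array set gave -0.04 for Gimap8, -0.02 for Gimap4, -0.21 for Gimap6, 0.67 for Gimap7, 0.41 for Gimap5 and -0.22 for Gimap3, since it mixes the sets, and Gimap7 was 0.07 after quantile normalization. Leaving out arrays there gave -0.67 to -0.06 for Gimap9, 0.09 to 0.21 for Gimap8, -0.05 to 0.19 for Gimap4, -0.05 to 0.11 for Gimap6, -0.08 to 0.05 for Gimap7, -0.07 to 0.12 for Gimap1, -0.09 to 0.00 for Gimap5 and -0.00 to 0.07 for Gimap3.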

Other observations

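The array in no group, titled FR3 with the gates of FR1, had levels of Gimap7, Gimap5 and Gimap3 nearer to those of the second set than to those of the first. Gimap7 stood at 11.92 there, above all 9 grouped arrays, whose highest was 11.73. Gimap5 stood at 9.31 and Gimap3 at 10.65, beside 9.32 and 10.63 in FR3 Klrg1+ and 9.32 to 9.41 and 10.56 to 10.63 on FR3 Klrg1- replicates 3 and 4. Gimap4 at 11.99 and Gimap8 at 10.22 lay within the range of the first set and above that of the second. Gimap6 at 12.05 lay between the sets, whose nearest arrays were at 12.28 in the first and 11.94 in the second. Gimap1 stood at 10.54 and Gimap9 at 10.28. It entered no comparison.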
